A study of Mus musculus with 6 samples.

Results

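The genes described here are 7 genes used to recognise eosinophils: Prg2, Prg3, Epx and Rnase2a, which encode proteins of eosinophil granules, and Siglecf, Adgre4 and Cd300a, which encode receptors of the cell surface. They were taken by name, and every probe set whose annotation names 1 of them and no other gene was kept, which gave 9 of 45037 probe sets and 7 of 18193 genes. All 7 genes had a probe set, and Adgre4 and Cd300a had 2 probe sets each. Gene-level values use the probe set of the gene with the highest mean over all arrays.

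The series holds whole-lung RNA of mice at postnatal day 15 on 6 Affymetrix MOE430 V2 arrays, 3 from samples with the genotype label Foxa2-/- and 3 from littermates labelled wild-type controls. Foxa2 belongs to the forkhead family of transcription factors and acts in the epithelium of the lung, and the design text asks what its loss has to do with type 2 (Th2) inflammation and with goblet cell hyperplasia, an excess of mucus-secreting cells. The strain label of both groups reads SPC(+)Cre(-) with doxycycline (Dox) over embryonic days 6.5 to 12.5. In inducible mouse lines of this kind SPC stands for the surfactant protein C promoter, active in lung epithelium, and Cre for the recombinase that removes the floxed gene, so Cre(-) in the strain label conflicts with the genotype label of the Foxa2-/- samples. The labels do not say whether each array is 1 animal, so the p-values rest on a spread between samples that may in part be technical.

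Eosinophils are granulocytes that mature in the bone marrow under interleukin-5 and enter tissues along eotaxin chemokines during type 2 responses. Their granules hold cationic proteins that are toxic to parasites and to airway cells: the major basic proteins, a peroxidase and ribonucleases. In the mouse lung several of the surface receptors used to recognise eosinophils are also made by macrophages. Siglecf, for example, is carried by resident alveolar macrophages as well as by eosinophils.

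Foxa2 itself read 7.72, 5.38 and 5.13 (log2) in Foxa2-/- replicates 1 to 3, against 10.28, 10.56 and 10.28 in controls. Every array thus lay on the side its genotype label gives, and Foxa2-/- replicate 1 kept the most signal. The difference was -4.30 (SE 0.66, limma adjusted p = 0.0599), which did not pass 0.05. Replicate 1 is also the Foxa2-/- sample with a title number of its own, since Foxa2-/- replicates 2 and 3 share theirs with control replicate 2. Over all probe sets its array correlated with those of Foxa2-/- replicates 2 and 3 at Pearson's r = 0.976 and 0.977 (across probe sets, not samples). With control replicates 1 to 3 its r was 0.978, 0.974 and 0.972. Foxa2-/- replicates 2 and 3 correlated with each other at 0.992 and with the control arrays at 0.979 to 0.988. Markers of lung epithelium were bright in both groups: the mean over 12 such genes was 12.58 to 12.70 in Foxa2-/- arrays and 12.57 to 12.65 in control arrays. Probe sets at the 3-prime end of Gapdh exceeded those at its 5-prime end, a gap that widens as RNA degrades, by 0.91 to 0.97 in Foxa2-/- arrays and 1.06 to 1.23 in control arrays, so the groups did not overlap. For Actb the same gap was 0.43 to 0.47 in Foxa2-/- arrays and 0.46 to 0.65 in control arrays, which overlap. The part of RNA quality in the values below was not tested.

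The sequence around the start site is shown for Prg3 and Epx, which rose. Also shown are Rnase2a and Siglecf, whose arrays did not overlap between groups. The window of Cd300a, whose arrays did not overlap either, is not printed. GATA1, a transcription factor required for eosinophil development, binds DNA at the letters GATA, and closely spaced pairs of such sites occur in promoters of several eosinophil genes. Each window runs from 250 bases before to 50 bases after the start site given by RefSeq (build GRCm38.p6) and is written 5′ to 3′ on the strand of the gene, with GATA on either strand in capitals (TATC where it lies on the other strand).
Prg3, chr2:84987965-84988264, plus strand: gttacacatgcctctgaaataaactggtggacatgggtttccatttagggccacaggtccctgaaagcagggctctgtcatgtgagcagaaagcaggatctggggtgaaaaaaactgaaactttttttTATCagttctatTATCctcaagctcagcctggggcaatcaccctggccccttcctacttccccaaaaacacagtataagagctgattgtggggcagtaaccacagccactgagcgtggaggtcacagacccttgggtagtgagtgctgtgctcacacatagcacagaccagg
Epx, chr11:87875487-87875786, minus strand: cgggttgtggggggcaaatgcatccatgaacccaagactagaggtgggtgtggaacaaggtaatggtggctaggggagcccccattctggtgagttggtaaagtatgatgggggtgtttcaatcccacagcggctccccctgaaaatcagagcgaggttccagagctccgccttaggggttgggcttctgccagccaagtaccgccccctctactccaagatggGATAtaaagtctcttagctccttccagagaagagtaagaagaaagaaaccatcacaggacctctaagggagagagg
Rnase2a, chr14:51256063-51256362, minus strand: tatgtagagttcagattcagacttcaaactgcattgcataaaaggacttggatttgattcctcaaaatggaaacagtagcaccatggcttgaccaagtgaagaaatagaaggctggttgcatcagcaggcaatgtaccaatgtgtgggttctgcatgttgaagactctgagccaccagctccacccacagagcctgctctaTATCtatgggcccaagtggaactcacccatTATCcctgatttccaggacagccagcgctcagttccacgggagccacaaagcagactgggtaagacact
Siglecf, chr7:43351091-43351390, plus strand: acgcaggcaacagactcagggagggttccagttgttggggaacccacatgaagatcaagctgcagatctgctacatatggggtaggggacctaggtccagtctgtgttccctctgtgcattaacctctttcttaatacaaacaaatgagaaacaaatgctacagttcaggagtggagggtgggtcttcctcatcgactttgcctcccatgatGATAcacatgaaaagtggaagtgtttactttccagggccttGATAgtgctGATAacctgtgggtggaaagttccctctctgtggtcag

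The letters GATA were searched on both strands, and stand in 57.9% of 32851 promoter windows of this length. Of the 6 members with a window 5 held them: 3 times in Siglecf, 2 times in Prg3 and in Rnase2a, and 1 time in Epx and in Adgre4. The window of Cd300a held none, and Prg2 had no window. In Epx the GATA begins 26 bases before the start site, and its last 2 letters are also the first of the word TATAAA. In Siglecf 2 of the GATA begin 3 and 12 bases after the start site, and that of Adgre4 begins 26 bases after it. Both GATA of Prg3 lie on the strand opposite to the gene, with their leftmost bases 122 and 110 bases before the start site. The longer word TGATAA, which contains GATA, was found in Prg3 and Siglecf and stands in 9.05% of all windows, while AGATAA was found in Adgre4 and stands in 11.2%. These matches describe letters in a window and not binding. At least 2 GATA stand in 28.7% of all windows, so a pair at any spacing is common. How many windows hold a closely spaced pair was not counted.

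Expression of the granule genes was higher in Foxa2-/- lungs. Prg2, Epx and Prg3 rose, and Rnase2a had the largest fitted positive difference of all 18193 genes but did not pass the test, with controls spread over 4.25 log2 units. Of the surface genes Siglecf and Cd300a lay above every control in all 3 Foxa2-/- arrays without passing, and Adgre4 overlapped between groups. Over all 7 genes 3 rose, none fell and 4 did not pass (limma, Benjamini-Hochberg adjusted p under 0.05 over 18193 genes), where 0.473% of all genes rose and 0.0989% fell. With control replicate 1, control replicate 2 or Foxa2-/- replicate 3 left out, 0 of all genes passed, so each call given below is lost without any of these arrays, and without Foxa2-/- replicate 2 the calls of the 7 genes were lost too. With the title number as a fixed block, which compares 2 Foxa2-/- arrays with 1 control, the limma adjusted p was 0.131 for Prg2, 0.166 for Epx and 0.277 for Prg3, so these calls were lost. In 6 of the 7, every Foxa2-/- array lay above every control array, which held for 10.8% of all genes. The median difference was 1.58 on the log2 scale over the 7 genes and 0.01 over all genes. In whole-lung RNA more cells of a type and more RNA per cell cannot be told apart.

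**Figure D1:**
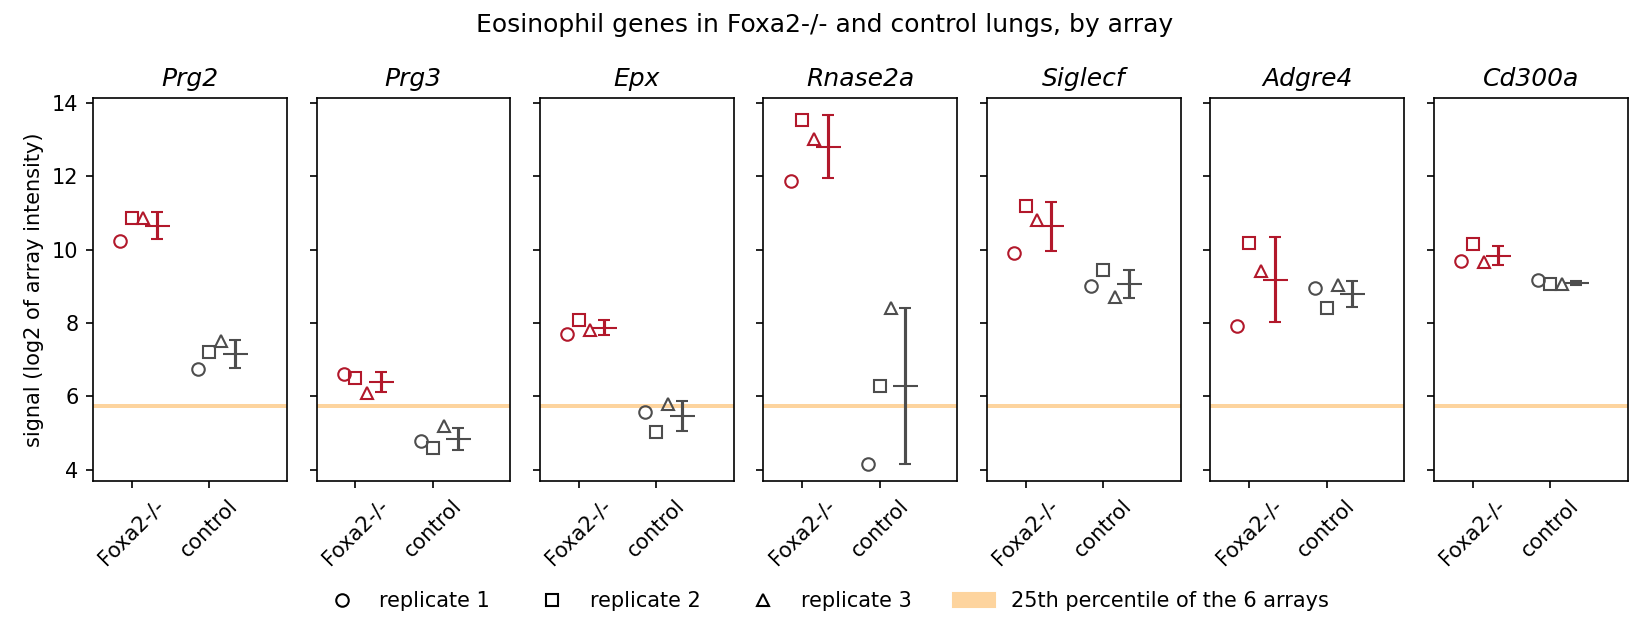
Signal of the 7 eosinophil genes on each array, on the log2 scale of the deposited values, in 3 Foxa2-/- lungs (red) and 3 control lungs (grey). Symbols mark replicates, the bar beside them is the mean ± SD, and the orange band is the 25th percentile of the 6 arrays (5.69 to 5.78), below which signal is dim. The groups are apart in 6 genes and overlap in Adgre4.

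Prg2 encodes the major basic protein, the crystalline core of the eosinophil granule. Its probe set 1422873_at read 10.24, 10.86 and 10.87 (log2) in Foxa2-/- replicates 1 to 3, against 6.75, 7.20 and 7.52 in control replicates 1 to 3. The lowest Foxa2-/- array lay 2.72 log2 units above the highest control. Within each array these values stand at the 77.3rd to 83.4th percentile of all probe sets in Foxa2-/- lungs and at the 36.8th to 45.9th percentile in controls. The rise was 3.50 log2 units (SE 0.26, 95% interval 2.88 to 4.12, limma adjusted p = 0.0152), an 11.3-fold higher signal. Prg2 had the sixth-smallest p of all genes, and the call was lost without control replicate 1, control replicate 2, Foxa2-/- replicate 2 or Foxa2-/- replicate 3 (differences of 3.30, 3.52, 3.40 and 3.40).

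Prg3 encodes a homologue of the major basic protein and lies beside Prg2 on chromosome 2, with no protein-coding gene between them in RefSeq. Probe set 1449924_at read 6.61, 6.49 and 6.09 in Foxa2-/- lungs, against 4.77, 4.59 and 5.18 in control lungs. The Foxa2-/- values stood low on their arrays, from the 29th to the 35.3rd percentile. All control values lie below the 25th percentile of their array, where signal above background cannot be read from the deposited values, so no fold is given. The rise was 1.55 log2 units (SE 0.21, 95% interval 1.05 to 2.04, limma adjusted p = 0.0429). Leaving out any array ended the call (differences of 1.42 to 1.71). In contrast to Prg2, the highest Foxa2-/- value was that of replicate 1.

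Epx encodes the eosinophil peroxidase, a haem enzyme that makes hypobromous acid from bromide and hydrogen peroxide. Its probe set 1449136_at read 7.69, 8.09 and 7.82 in Foxa2-/- lungs, against 5.58, 5.02 and 5.80 in control lungs. Foxa2-/- values stood near the middle of their arrays, from the 48.2nd to the 52.2nd percentile, and control values from the 17.7th to the 25.7th percentile. Control replicates 1 and 2 lie below the 25th percentile and control replicate 3 just above it, so no fold is given. The lowest Foxa2-/- array exceeded the highest control by 1.89 log2 units. Epx rose by 2.40 log2 units (SE 0.23, 95% interval 1.86 to 2.94, limma adjusted p = 0.0208). The call was lost without control replicate 1, control replicate 2, Foxa2-/- replicate 2 or Foxa2-/- replicate 3 (differences of 2.46, 2.18, 2.29 and 2.43).

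Rnase2a, also named Ear11, encodes a secreted ribonuclease of the eosinophil-associated family. In mice it is known from lung macrophages exposed to type 2 cytokines as well as from eosinophils. Probe set 1425295_at read 11.86, 13.52 and 13.03 in Foxa2-/- lungs, at the 92nd to the 99.1st percentile of their arrays, against 4.17, 6.28 and 8.41 in control lungs. The controls span 4.25 log2 units, the widest control range of the 7 genes, and still end 3.45 units below the lowest Foxa2-/- array. The difference was 6.52 (SE 1.04, 95% interval 4.03 to 9.01, limma adjusted p = 0.0618), and the gene did not pass. It passed with array weights (7.37), with a random block for the title number (6.66) and with trend and robust settings (6.52), and without any 1 array the difference was 5.46 to 7.58. Control replicate 1 was dim, at the 9.48th percentile of its array, so no fold is given.

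Siglecf encodes a sialic acid-binding receptor that restrains mouse eosinophils and promotes their death. Probe set 1424975_at read 9.90, 11.18 and 10.82 in Foxa2-/- lungs, against 9.001, 9.46 and 8.70 in control lungs, so Foxa2-/- replicate 1 lay 0.44 log2 units above the highest control. The controls were already well lit, from the 59.2nd to the 68th percentile of their arrays. The difference was 1.58 (SE 0.36, 95% interval 0.72 to 2.44), a 2.99-fold ratio that did not pass (limma adjusted p = 0.138). Without Foxa2-/- replicate 1 it was 1.95 and passed, and without the other arrays it was 1.31 to 1.78 and did not.

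Cd300a encodes an inhibitory receptor of myeloid cells, eosinophils and mast cells that binds phospholipids of dying cells. Its brighter probe set 1435903_at read 9.70, 10.15 and 9.67 in Foxa2-/- lungs, against 9.16, 9.06 and 9.06 in control lungs. The control values differ by at most 0.10, the narrowest control range of the 7 genes, and each Foxa2-/- array lay at least 0.52 above them. The difference of 0.74 (SE 0.16, 95% interval 0.37 to 1.12) is a 1.67-fold ratio and did not pass (limma adjusted p = 0.116). The dimmer probe set 1445292_at overlapped between groups, with 5.73, 5.53 and 5.08 in Foxa2-/- lungs and 5.01, 5.20 and 5.25 in control lungs.

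Adgre4 encodes an adhesion receptor of the EGF-TM7 group, related to the macrophage marker Adgre1 (F4/80) and found on monocytes and macrophages. Its brighter probe set 1451563_at read 7.93, 10.19 and 9.42 in Foxa2-/- lungs, against 8.95, 8.40 and 9.04 in control lungs. Foxa2-/- replicate 1 was the lowest of all 6 arrays and Foxa2-/- replicates 2 and 3 the highest. The difference was 0.39 (SE 0.55, 95% interval -0.94 to 1.71, limma adjusted p = 0.809), an interval that spans 0. Without Foxa2-/- replicate 1 it was 1.01, and without Foxa2-/- replicate 2 it was -0.12. The dimmer probe set 1424998_at gave the same order among Foxa2-/- arrays, 5.68, 7.85 and 6.73, against 6.23, 5.39 and 6.42 in control lungs.

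At the level of probe sets, with adjustment over all 45037, 2 of the 9 rose, those of Prg2 (adjusted p = 0.0292) and Epx (0.0332), where 0.0799% of all probe sets rose. Every Foxa2-/- array lay above every control for 6 of the 9, and for 9.73% of all probe sets. The probe set of Prg3 had an adjusted p of 0.0762 there and that of Rnase2a 0.0995 (limma in each case). The same values thus gave 1 call fewer than the gene-level test, in which fewer features are adjusted for.

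**Figure D2:**
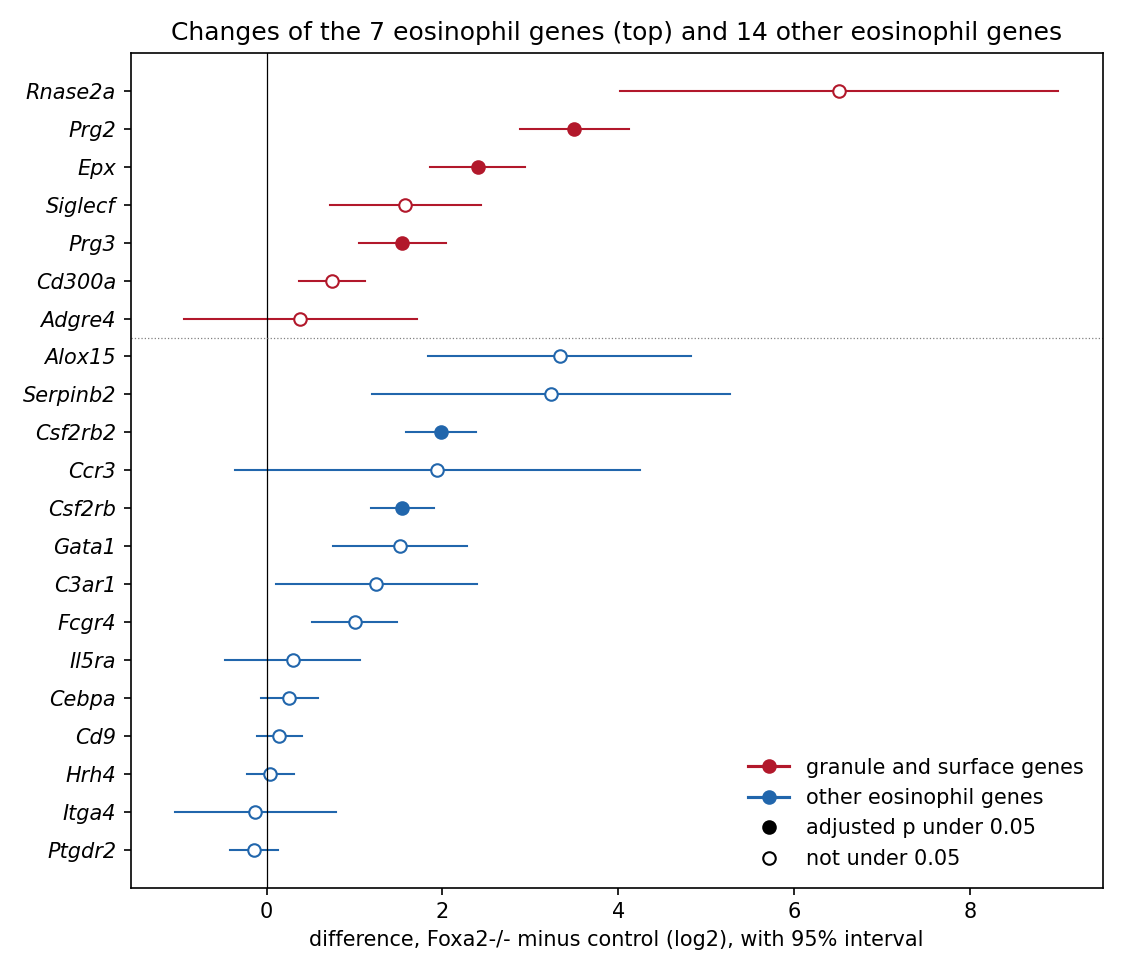
Difference between Foxa2-/- and control lungs (log2) with its 95% interval from limma, for the 7 granule and surface genes (red) and 14 other eosinophil genes (blue). Filled points passed an adjusted p of 0.05: Prg2, Epx and Prg3 above the dotted line, Csf2rb2 and Csf2rb below it. The interval of Rnase2a is the longest, 4.03 to 9.01.

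Among the genes with no control array below its 25th percentile, the difference was 3.50 for Prg2, 1.58 for Siglecf, 0.74 for Cd300a and 0.39 for Adgre4. The 95% interval of Prg2 lies above those of the other genes named, and the intervals of Siglecf, Cd300a and Adgre4 overlap one another. The fitted differences of Rnase2a, Epx and Prg3 rest on dim control arrays and are not ranked against these. Within the shared title number, which 2 Foxa2-/- samples and 1 control carry, the arrays gave differences of the same sign in all 7 genes: 6.99 for Rnase2a, 3.67 for Prg2, 2.94 for Epx, 1.70 for Prg3, 1.54 for Siglecf, 1.41 for Adgre4 and 0.85 for Cd300a. With 1 control array these carry no spread among controls.

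Arrays within a group also differed in a shared way. Foxa2-/- replicate 1 was the lowest Foxa2-/- array in 5 of the 7 genes, all but Prg3 and Cd300a. Control replicate 3 was the highest control in all 4 granule genes. Adgre4 also had its highest control value in control replicate 3, while in Siglecf control replicate 2 was the highest and in Cd300a control replicate 1.

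Other genes tied to eosinophils were followed in a list of 20, of which 14 had a single-gene probe set. Of these 2 rose, none fell and 12 did not pass, where 0.473% of all genes rose and 0.0989% fell. Their median difference was 1.12, and their mean signal was 8.92 to 9.88 in Foxa2-/- arrays and 8.05 to 8.64 in control arrays. Csf2rb and Csf2rb2, which encode the signalling chains shared by the receptors for interleukin-5, interleukin-3 and GM-CSF, rose by 1.54 (SE 0.15, limma adjusted p = 0.0217) and 1.98 (SE 0.17, limma adjusted p = 0.019). Csf2rb2 read 10.50, 10.85 and 10.58 in Foxa2-/- lungs, against 8.41, 8.88 and 8.69 in control lungs. These chains are also made by macrophages and other myeloid cells.

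The genes of that list that define eosinophils more narrowly gave less even values. Ccr3, the eotaxin receptor, read 6.67, 9.75 and 8.88 in Foxa2-/- lungs, against 5.54, 5.83 and 8.10 in control lungs, so the groups overlapped (1.94, SE 0.96, limma adjusted p = 0.487). Il5ra, the specific chain of the interleukin-5 receptor, read 5.61, 6.88 and 6.61 in Foxa2-/- lungs and 6.19, 5.96 and 6.06 in control lungs, which overlap too (0.30, SE 0.32). Gata1 read 8.34, 9.01 and 8.22 in Foxa2-/- lungs, all above the 7.02, 6.48 and 7.52 of control lungs, and did not pass (1.52, SE 0.32, limma adjusted p = 0.117). Alox15, a lipoxygenase of mouse eosinophils and macrophages, differed by 3.34 (SE 0.62, limma adjusted p = 0.0909) with no overlap. As in the granule genes, control replicate 3 was the highest control in Ccr3, Gata1 and Alox15. Ptgdr2 and Hrh4 were dim in every array, at the 18.7th to 23.4th percentile for Ptgdr2 and the 12.96th to 14.8th for Hrh4. Their differences were -0.14 (SE 0.11) for Ptgdr2 and 0.04 (SE 0.11) for Hrh4, and the groups overlapped in both. Ccr3 and Il5ra values were chosen for print after they were seen, as were those of Gata1, Ptgdr2 and Hrh4.

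Genes that grow, keep or attract eosinophils were followed in a list of 13, of which 1 rose, none fell and 12 did not pass. Ccl24 (eotaxin-2) read 9.66, 10.92 and 9.53 in Foxa2-/- lungs, against 6.30, 5.75 and 7.17 in control lungs, a rise of 3.63 (SE 0.48, limma adjusted p = 0.0429). Ccl8 differed by 4.15 (SE 0.62, limma adjusted p = 0.0568) and Il33, an alarm cytokine of barrier tissue, by 1.05 (SE 0.22, limma adjusted p = 0.116), both with no overlap. Il5, the growth factor of eosinophils, read 4.62, 7.03 and 4.88 in Foxa2-/- lungs and 4.65, 4.50 and 4.54 in control lungs, so its signal was dim in all but Foxa2-/- replicate 2. That sample also had the highest Foxa2-/- value of Epx, Rnase2a, Siglecf, Adgre4, Cd300a and Ccl24, but not of Prg2 or Prg3. Its mean over 9 genes common to white blood cells was the highest too, 12.82 against 12.29 and 12.51 in Foxa2-/- replicates 1 and 3. A link of Il5 to the other genes was not tested. Il5 was singled out after its values were seen.

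Markers of other white blood cells were read on the same arrays. Of 9 genes common to white blood cells 2 rose, none fell and 7 did not pass, where 0.473% of all genes rose and 0.0989% fell. In 8 of the 9 every Foxa2-/- array lay above every control, which held for 10.8% of all genes. Tyrobp and Fcer1g, adaptor chains of activating receptors, rose by 1.01 and 1.03 (limma adjusted p = 0.0429 and 0.0499). The mean over the list was 12.29 to 12.82 in Foxa2-/- arrays and 11.66 to 11.95 in control arrays. Among 16 alveolar macrophage genes 3 rose (Cd68, F7 and Itgax) and none fell, with a list mean of 11.17 to 11.48 in Foxa2-/- arrays and 10.74 to 10.81 in control arrays. Among 13 monocyte and interstitial macrophage genes none rose or fell, while 7 had an unadjusted p under 0.05, which 12.3% of all genes had, with C1qa at 1.03 (limma adjusted p = 0.0795). Their mean was 10.39 to 10.77 in Foxa2-/- arrays and 9.88 to 10.14 in control arrays.

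Mast cell and basophil genes numbered 13, of which 1 rose, where 0.473% of all genes rose. It was the protease gene Mcpt2 (1.51, SE 0.21, limma adjusted p = 0.0499). Its control values were dim, at the 8.6th to 12.5th percentile, as was Foxa2-/- replicate 1 at the 20.1st. Signal above background cannot be read from the deposited values there. The list mean was 7.11 to 7.35 in Foxa2-/- arrays and 6.79 to 7.13 in control arrays, which overlap, and Fcer1a and Ms4a2, which make the high-affinity IgE receptor, were below the 25th percentile of each array. None of 12 neutrophil genes passed, and 2 had an unadjusted p under 0.05, which 12.3% of all genes had. Their mean of 8.52 to 8.75 in Foxa2-/- arrays overlapped the 8.01 to 8.71 of control arrays. Mpo, the neutrophil relative of Epx, read 6.36, 5.14 and 5.03 in Foxa2-/- lungs and 5.50, 4.78 and 6.12 in control lungs. Among 6 genes of red cells and platelets none passed or had an unadjusted p under 0.05, and the groups overlapped in all 6. The part of any of these cells in the values of the 7 genes was not tested.

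**Figure D3:**
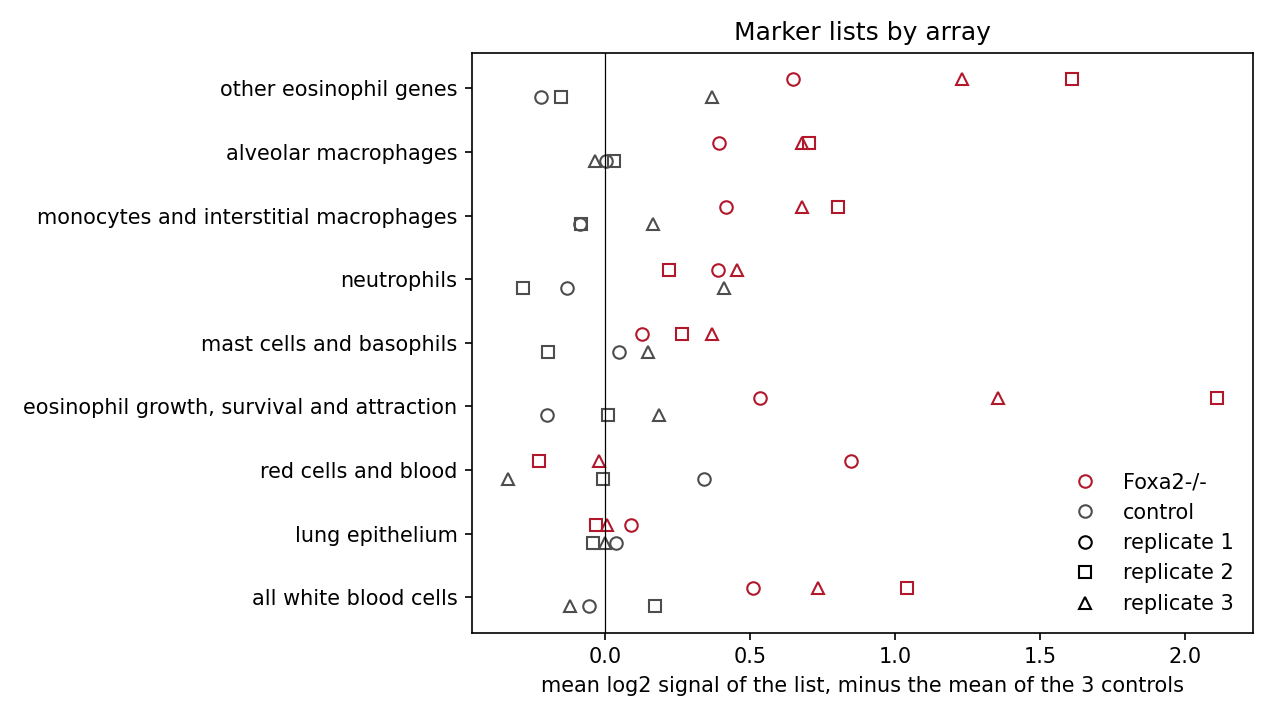
Mean log2 signal of each marker list on each array, minus the mean of the 3 control arrays, with Foxa2-/- arrays in red and control arrays in grey and replicates as symbols. Lists of eosinophil, macrophage, monocyte and all white blood cell genes keep the groups apart, as does the list of eosinophil growth and attraction genes. Lists of neutrophils, mast cells, red cells and lung epithelium overlap.

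How far the 7 genes moved beyond white blood cell genes in general was measured by subtracting, on each array, the mean of the 9 white blood cell genes. After this the difference was 2.74 for Prg2, 1.64 for Epx, 0.78 for Prg3 and 5.75 for Rnase2a. Every Foxa2-/- array lay above every control in these granule genes (exact permutation test, two-sided, p = 0.1 each, the smallest that 3 against 3 allows). The values of Epx, Prg3 and Rnase2a rest on dim control arrays here too, while the subtracted mean is bright, and dim differences are compressed. In Prg3 the lowest Foxa2-/- array, -6.42, and the highest control, -6.48, all but touched. Siglecf differed by 0.82 with no overlap and the same p. The difference of Cd300a was -0.019 (exact permutation test, p = 0.9) and that of Adgre4 -0.38 (exact permutation test, p = 0.6), and both overlapped. Set against the 16 alveolar macrophage genes, Siglecf differed by 0.99 with no overlap and Cd300a by 0.15 with overlap. That list moved unevenly, so its mean does not stand for each gene. Its median difference was 0.48, but Itgax, F7 and Cd68 differed by 1.94, 1.86 and 1.45, beside 1.58 for Siglecf before subtraction. Against the 13 monocyte and interstitial macrophage genes Siglecf differed by 0.95, and there the groups overlapped. Differences that share an array mean with each other are not independent. Over the 21 comparisons with 3 lists the smallest Benjamini-Hochberg adjusted p of these exact tests was 0.15.

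**Figure D4:**
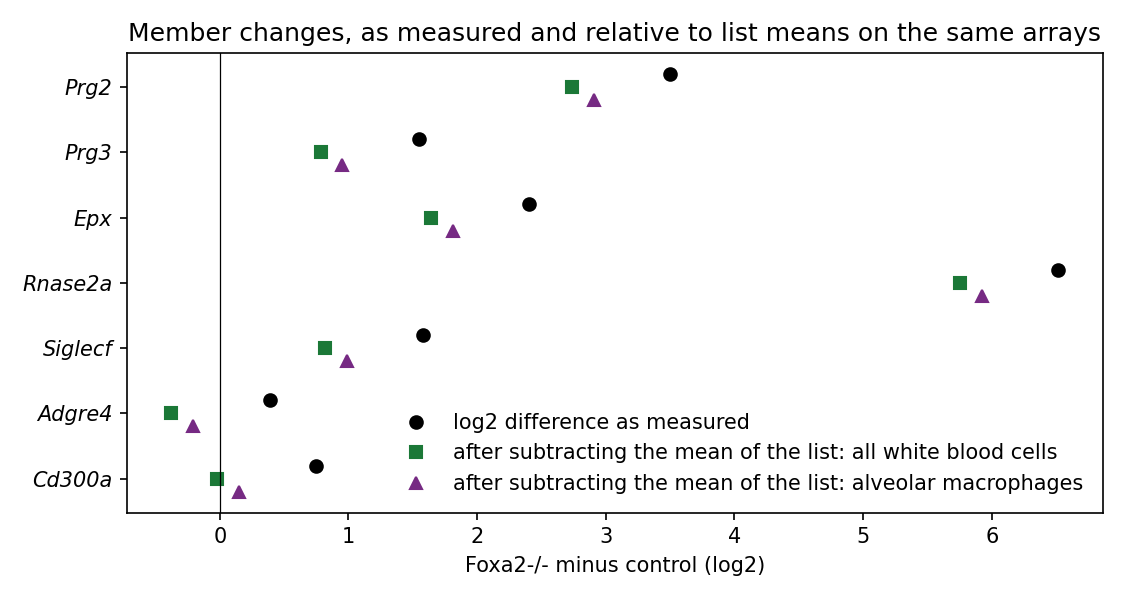
Difference between Foxa2-/- and control lungs (log2) for each of the 7 genes, as measured (black circles), after subtraction of the mean of 9 white blood cell genes on the same array (green squares) and after subtraction of the mean of 16 alveolar macrophage genes (purple triangles). The granule genes and Siglecf stay above 0 in all cases, while Cd300a lies at -0.019 and Adgre4 at -0.38 relative to white blood cell genes. The differences of Rnase2a, Epx and Prg3 rest on dim control arrays.

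The genes whose pattern over the 6 arrays was most like that of Prg2 were sought among 12637 other named genes, sex-linked ones left out, with signal above the 25th percentile of gene means. The 8 with the highest Pearson's r were Bnipl (0.995), Clgn (0.994), Siglece (0.993), Scpep1 (0.993), Cd68 (0.993), Csf2rb (0.992), Tyrobp (0.991) and Serpina3n (0.991). With 6 arrays in 2 groups such values mostly follow the difference between the groups, and 138 of these genes exceeded 0.95, so the order is a description of these arrays. Of the 8, Siglece, Cd68, Csf2rb and Tyrobp are genes of myeloid cells. Among the 7 eosinophil genes themselves, r with Prg2 was 0.975 for Epx, 0.972 for Rnase2a, 0.944 for Prg3, 0.919 for Cd300a, 0.899 for Siglecf and 0.367 for Adgre4.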

How the data were processed

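Biotin-labelled RNA was hybridised, 1 array per sample. Deposited values are log2, as read from their range of 2.36 to 14.95 and array medians of 7.85 to 7.91, and the authors made them with RMA, per the submitters' processing notes. Its version and settings are not given in the labels. RMA corrects background, equalises the arrays and summarises the probes of a probe set, so a shift of most genes would not be seen and dim differences are compressed. No detection calls were used.

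Groups come from the genotype label, and replicate numbers follow accession order and pair nothing. Of 45101 probe sets, 64 Affymetrix controls were left out. The platform annotation gave 34945 probe sets 1 symbol and 932 several, and left 9160 unnamed here. Probe sets with several symbols name no gene. limma 3.58.1 in R 4.3.3 (lmFit, eBayes, no covariate, no filter) compared 3 Foxa2-/- with 3 control arrays, two-sided, with Benjamini-Hochberg adjustment over all 18193 genes or all 45037 probe sets, a threshold of 0.05 and 95% intervals. The number of arrays limits the precision.

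The 7 genes and all lists were chosen with earlier results of these data known. Named besides them were Foxa2, up to 3 genes of each list by smallest p and the 8 genes most like Prg2, and other list genes were chosen after their values were seen, as was the list of family relatives. List entries without a single-gene probe set, among them Ear1, Ear2, Cebpe and Il1rl1, were not analysed here. Promoter sequences are from a set of RefSeq windows (GRCm38.p6) that held 6 of the 7 genes and lacked Prg2. On simulated data for this comparison over 18193 genes, genes simulated with a change of 1 log2 unit were recovered in 55.2% of 67 cases, those with 2 units in 92.5% of 67 and those with 3 units in 93.9% of 66, beside 3 false calls. Alternatives covered median centring, cyclic loess, a filter on dim signal, trend and robust eBayes, array weights, a fixed or random block for the title number (statmod 1.5.0), averaging the probe sets of a gene, a threshold of 0.1 and each array left out. Subtracting the mean of a marker list was added after the data were seen.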

Additional observations from a re-analysis of the deposited data

How the results depend on the processing

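The differences of Prg2, Epx, Prg3, Rnase2a, Siglecf and Cd300a stayed positive under every alternative run other than subtraction of a list mean, and that of Adgre4 turned to -0.12 without Foxa2-/- replicate 2. Relative to the mean of white blood cell genes Adgre4 was -0.38 and Cd300a -0.019, and relative to alveolar macrophage genes Adgre4 was -0.21. Calls were less stable. With each array left out in turn, the 7 genes gave 0 to 3 calls and their 9 probe sets 0 to 2, while all genes gave 0 to 249 and all probe sets 0 to 144. In those fits the differences ran from 3.30 to 3.71 for Prg2, 2.18 to 2.57 for Epx, 1.42 to 1.71 for Prg3, 5.46 to 7.58 for Rnase2a, 1.31 to 1.95 for Siglecf, 0.59 to 0.83 for Cd300a, -0.12 to 1.01 for Adgre4 and -5.12 to -3.83 for Foxa2. No gene passed limma's test without control replicate 1, control replicate 2 or Foxa2-/- replicate 3, where 1654, 1801 and 2111 genes and 6 of the 7 had an unadjusted p under 0.05. A fixed block for the title number, which leaves 1 control and 2 Foxa2-/- arrays to the comparison, gave 0 calls among genes and 0 among probe sets, although Prg2 (3.67), Epx (2.94) and Prg3 (1.70) kept their size and 2121 genes had an unadjusted p under 0.05. The same number as a random block called 399 genes, 279 probe sets, 5 of the 7 genes (Rnase2a at 6.66 and Siglecf at 1.51 besides the 3) and 4 of the 9 probe sets, and Foxa2 (-4.64). Array weights called 607 genes, 564 probe sets, 6 of the 7 (Rnase2a 7.37, Siglecf 1.84 and Cd300a 0.82 besides the 3), 5 of the 9 probe sets, and Foxa2 (-4.95). Trend and robust settings called 72 probe sets, Rnase2a (6.52) and Foxa2 (-4.30). Cyclic loess called 48 genes, 6 probe sets and 0 of the 9, and ended the call of Prg3 (1.50). At a threshold of 0.1 there were 320 genes, 232 probe sets and 4 of the 9 probe sets. The filter on dim signal left Prg3 untested. The cause of these changes was not tested. No paired analysis was possible because the groups share fewer than 2 title numbers.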

Other observations

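Family relatives of the eosinophil genes, listed by name after the array annotation was read, numbered 19 with a single-gene probe set. Of these 1 rose, none fell and 18 did not pass, where 0.473% of all genes rose and 0.0989% fell. In 12 every Foxa2-/- array lay above every control, which held for 10.8% of all genes. Siglece, an inhibitory receptor of myeloid cells, rose by 1.72 (SE 0.19, limma adjusted p = 0.0325), with 9.47, 10.04 and 9.99 in Foxa2-/- lungs against 8.02, 8.01 and 8.30 in control lungs. Siglecg, the neighbour of Siglecf on chromosome 7 and a receptor of B cells, differed by 0.85 (SE 0.33, limma adjusted p = 0.371). In the Cd300 family Cd300lb, which lies beside Cd300a on chromosome 11, differed by 1.60 (SE 0.35, limma adjusted p = 0.125) and Cd300lf by 1.35 (SE 0.26, limma adjusted p = 0.0977). Cd300lg, the member of the family made by endothelium, differed by -0.50 (SE 0.40, limma adjusted p = 0.668).

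No relative in the ribonuclease family passed. Rnase2b (Ear5), a relative of Rnase2a, read 5.08, 4.88 and 4.71 in Foxa2-/- lungs and 4.26, 4.11 and 4.77 in control lungs, dim in every array and overlapping between groups. Ear3, on a probe set whose suffix marks probes shared with other transcripts, read 13.54, 13.91 and 13.76 in Foxa2-/- lungs against 11.99, 13.16 and 13.43 in control lungs (0.87, SE 0.37, limma adjusted p = 0.412). Probe sets of such similar genes can share signal, and how far that holds here was not tested. Rnase4, another secreted ribonuclease, gave 13.21, 13.45 and 13.50 in Foxa2-/- lungs and 13.46, 13.35 and 13.34 in control lungs. Of the peroxidases related to Epx, neither Mpo (0.04, SE 0.46) nor Lpo (0.02, SE 0.16) passed.

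Prg4, lubricin, shares a naming series but no granule function with Prg2 and Prg3. It read 9.64, 11.07 and 9.98 in Foxa2-/- lungs against 7.53, 7.07 and 8.18 in control lungs (2.64, SE 0.43, limma adjusted p = 0.0658).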
